A study of Mus musculus with 4 samples.

Results

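Adventitial fibroblasts of the mouse lung were identified in 4 droplet single-cell libraries as cells that carried the RNA of at least 3 of 7 adventitial genes (Pi16, Dpt, Col14a1, Scara5, Entpd2, Ccl11 and Clec3b). A member also had to hold RNA of more of these genes than of 7 alveolar fibroblast genes (Inmt, Tcf21, Npnt, Slc7a10, Limch1, Scn7a and Col13a1) and at least 1 molecule of Pdgfra or Col1a2. Cells with any molecule of Cd3e, Cd79a, Cdh5 or Ptprc, which mark T cells, B cells, endothelium and leukocytes, were left out. The rule returned 1016 adventitial fibroblasts among 53463 kept cells. A mirrored rule, with the roles of both gene sets exchanged, returned 2091 alveolar fibroblasts, which serve as the nearest cells for description. The members were thus chosen by their own RNA levels, so the levels of the adventitial cells against other cells are given as a description with no test.

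Adventitial fibroblasts lie in the connective tissue cuffs around bronchi, large vessels and lymphatics, whereas alveolar fibroblasts lie in the walls of the gas-exchanging alveoli. The adventitial cells make collagen, elastic fibres and small proteoglycans, and they are known as a source of Il33, Cxcl12 and other signals for the immune cells of the cuff. Pi16, a secreted peptidase inhibitor, marks fibroblasts of this kind in many organs.

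The study compared mice with an edited Galt gene (GAL) with wild-type mice (WT), with 2 libraries of whole lung per group. The Galt product transfers a uridyl group in the Leloir route, by which cells use galactose. The lungs had been rinsed, minced and digested with collagenase and DNase, with no sort, and neither group is labelled with a treatment. The sources used here do not give the strain, the age, the kind of edit or the number of animals behind a library. The p-values therefore measure only how far these libraries spread, which may be technical.

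The members numbered 347 and 204 in GAL replicates 1 and 2, and 189 and 276 in WT replicates 1 and 2. Their summed counts came to 2178990, 1122536, 944938 and 1425772 unique molecular identifiers (UMIs, 1 for each captured RNA molecule), in the same order. The median member held 6354 and 5628 UMIs in GAL and 4688 and 5152 in WT, so the GAL cells were the deeper ones. Of the cells that met every other condition, 40, 33, 21 and 26 had exactly 2 rule genes and stayed just outside, and 21, 21, 20 and 17 had exactly 3 and stayed just inside. All 7 genes were found in 112, 52, 35 and 65 members. Between 4 and 6 members per library carried a barcode that another library also used. Members of every library held Xist (917 to 2194 UMIs) and none of Ddx3y, Uty, Kdm5d or Eif2s3y.

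RNA of other cell types was present to different degrees. The 8 markers of alveolar type 2 cells, the surfactant-making epithelium, were compared as CPM, the UMIs of a gene scaled to a common total per library. They summed to 610 CPM in GAL replicate 1 and 1620 in WT replicate 2, against 20.5 and 92.1 in the remaining GAL and WT libraries, where Sftpb and Lamp3 were at 0. Club cell markers came to 399 CPM in GAL replicate 1 and to 105 to 146 in the other libraries, and the 8 smooth muscle markers to 756 in WT replicate 2 and 126 to 338 elsewhere. Neutrophil markers stood at 407 CPM in GAL replicate 2 and at 63.8 to 96.3 elsewhere. Mesothelial markers summed to 21.2 to 46.4 CPM with Msln and Lrrn4 at 0 in every library. The cells with the highest doublet scores made up 2.31%, 4.41% and 4.76% of the members in the first 3 libraries and 10.5% in WT replicate 2. The members of GAL replicate 1 and WT replicate 2 therefore stand apart in their alveolar type 2 RNA, and those of GAL replicate 1 also in club cell RNA. The alveolar fibroblasts held such RNA too. In GAL replicate 1, with 1024 of them, type 2 markers summed to 4885 CPM and club cell markers to 5541. Type 2 markers came to 1784 CPM in WT replicate 1 and to 51.4 and 127 in GAL replicate 2 and WT replicate 2. Club cell markers came to 63.0 to 95.4 CPM outside GAL replicate 1. The part of this RNA in comparisons with alveolar fibroblasts was not tested.

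The 7 rule genes were found in most members and, for 4 of them, in few alveolar fibroblasts. Pi16 (chr17:29317680-29330593, GRCm38) was detected in 85.3%, 85.8%, 84.1% and 77.5% of the members, in 3.4% to 6.7% of alveolar fibroblasts and in 1.7% to 2.5% of lymphocytes, which should lack it. The median depth was 4688 to 6354 UMIs in members and 2260 to 3176 in lymphocytes. Clec3b, which encodes the plasminogen-binding protein tetranectin, was found in 97.5% to 99.6% of members and Dpt, the matrix protein dermatopontin, in 89.4% to 95.7%. Both were also frequent in alveolar fibroblasts, at 63.3% to 75.8% and 69.1% to 80.3%. Scara5, a ferritin receptor, was found in 56.6% to 72.3% of members and in 0% to 2.0% of alveolar fibroblasts. Ccl11, the eosinophil chemoattractant eotaxin, was found in 53.4% to 58.2% of members and in 0.6% to 5.7% of alveolar fibroblasts. Dpp4, a marker paired with Pi16 in other organs, was detected in 0.5% to 1.8% of members and in 5.6% to 10.4% of lymphocytes.

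As summed levels, Pi16 stood at 1202, 1222, 851 and 928 CPM in the members of GAL replicates 1 and 2 and WT replicates 1 and 2, against 18.3 to 43.1 CPM in alveolar fibroblasts. Scara5 stood at 342, 342, 211 and 246 CPM against 0 to 11.1. For both genes the GAL members were above the WT members. Neither was called in the test between GAL and WT given below, and both took part in choosing the cells, so nothing is read from this difference. Genes that the rule did not name are described next. Their list was made with earlier results of these data known, so it cannot check the label. Of 29 further genes listed for adventitial identity, 24 were higher in every library's members than in any library's alveolar fibroblasts and none was lower. Of the 5623 genes with at least 20 CPM in the members, 11.0% were higher in this way and 13.1% lower, and since the rule used this contrast nothing further is read from it.

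**Figure D1:**
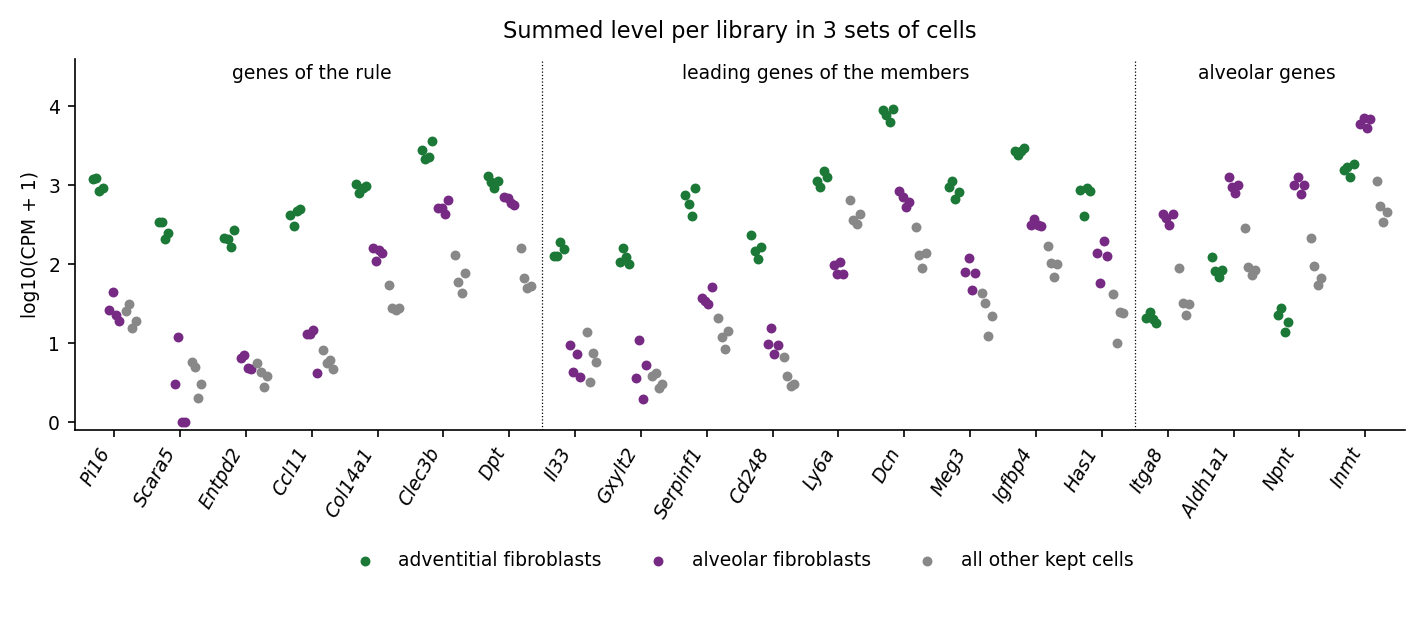
Level of 20 genes as log10(CPM + 1) in adventitial fibroblasts (green), alveolar fibroblasts (purple) and all other kept cells (grey), with 1 point per library. Il33 lies between 126 and 192 CPM in the members and at most at 8.46 in alveolar fibroblasts, and Inmt is higher in alveolar fibroblasts but well above 0 in both. Levels are to be compared within a gene.

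Genes outside the rule were ranked by the ratio of mean levels among those with at least 100 CPM in the members of every library, and Il33 then stood first against alveolar fibroblasts. Genes below that floor were not ranked, and some of them, such as Lum and Aldh1a3, had ratios of 23.6 and 44.1. Il33 (chr19:29925114-29960718) encodes a nuclear alarmin that activates innate lymphoid cells. It stood at 128, 126, 192 and 157 CPM in the members and at 8.46, 3.32, 6.23 and 2.69 in alveolar fibroblasts, a 29.1-fold difference of the means. Il33 was detected in 36.2% to 41.8% of members. The 15 leading genes above this floor further held Gxylt2, a xylosyltransferase, at 27.4-fold, Serpinf1, the angiogenesis inhibitor PEDF, at 17.9-fold, and Cd248, the stromal surface protein endosialin, at 17.4-fold. The Ly6 surface antigen genes Ly6c1 and Ly6a were 16.9-fold and 13.9-fold higher, and the imprinted noncoding RNAs Rian and Meg3 13.7-fold and 11.3-fold. Dcn, the collagen-binding proteoglycan decorin, stood at 8973, 7886, 6308 and 9149 CPM in the members and at 524 to 854 in alveolar fibroblasts. Apod, Olfml2b, Mmp23, Igfbp4, Tspan11 and Has1 completed these 15, at 5.90-fold to 9.87-fold. With the same floor, Cd248 led against all other kept cells at 52.6-fold, and Cygb, Aebp1, Fbln1, Fbln2 and Podn joined the list.

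Matrix genes of the members lay both above and below their levels in alveolar fibroblasts. Among 34 proteoglycans and matricellular genes, 13 were higher in all libraries' members and 8 were lower. The shares were 11.0% and 13.1% among genes with at least 20 CPM in the members, a floor that the lists did not have. Lum, the keratan sulphate proteoglycan lumican, stood at 190, 103, 83.6 and 150 CPM against 3.36 to 7.19 in alveolar fibroblasts, and Has1, a hyaluronan synthase, at 863, 411, 925 and 854 against 56.4 to 195. On the lower side, Thbs1 averaged 323 CPM in the members and 1544 in alveolar fibroblasts, Spon1 106 and 515, and Prelp 248 and 663 (genes chosen after their values were seen). Mgp, the calcification inhibitor matrix Gla protein, averaged 24138 and 22761 CPM and overlapped between both cell groups. Of 23 collagen genes, Col15a1, Col5a1 and Col1a1 were higher in the members and 5, among them Col6a3, Col12a1 and Col4a5, were lower. These counts stand beside the same 11.0% and 13.1%. Col1a1 stood at 1291, 1835, 1120 and 894 CPM in the members, at a mean of 679 in alveolar fibroblasts. In the elastic fibre list, the fibulin genes Fbln2 and Fbln1 were 5.46-fold and 3.87-fold higher and the crosslinking enzyme gene Lox was at 0.44 of the alveolar level.

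Signals and their carriers were split in a like manner. Cxcl12, the stromal chemokine that retains Cxcr4-bearing cells, stood at 497, 484, 531 and 560 CPM in the members, 3.73-fold above alveolar fibroblasts. Cxcl14, another chemokine, was instead lower, at 59.2, 97.1, 275 and 70.8 CPM against 486 to 876. Retinoic acid synthesis was divided between the cells by enzyme: Aldh1a3 stood at 22.3 to 38.1 CPM in the members against 0 to 1.44, Aldh1a2 at 38.1 to 57.5 against 0.538 to 11.98, and Aldh1a1 stood at 68.8 to 122 CPM in the members against 788 to 1278. The alveolar growth factors Wnt2 and Fgf10 were lower in the members, at 2.12 to 6.31 and 30.2 to 34.9 CPM against 31.4 to 61.8 and 70.8 to 100.02. Of 15 complement genes, 7 were higher in the members and Cd59a was lower, beside 11.0% and 13.1% of genes with at least 20 CPM in the members. The members were not free of alveolar genes, since Inmt stood at 1564, 1714, 1276 and 1867 CPM against 5307 to 7241. Scn7a stood at 305 to 334 CPM, just below the 374 to 406 of alveolar fibroblasts. Npnt (12.7 to 26.7 CPM against 777 to 1268) and Col13a1 (2.75 to 4.45 against 171 to 201) were nearly absent. These alveolar genes took part in the rule.

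The members were not uniform in Pi16. When each member was thinned to 2000 UMIs, which left out 24, 29, 18 and 19 shallower cells, 234 of 323, 131 of 175, 119 of 171 and 160 of 257 still held a Pi16 UMI. Cells without one may simply have missed it, and 58, 36, 50 and 46 cells held exactly 1, so the split is a range and not a pair of cell types. Of 2643 genes with at least 100 UMIs over these cells, 272 (10.3%) were higher in the cells with Pi16 in all 4 libraries and 183 (6.92%) were lower. Thinning is a random draw, and a second draw took the same cells, so the draws are not independent. In the second draw only 76 of the 272 and 38 of the 183 kept their direction in all 4 libraries. The genes named here are among those, except where said.

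Several genes differed between cells with and without Pi16 in every library of both draws. Cd34, a surface sialomucin of stromal and endothelial cells, stood at 605, 557, 403 and 484 CPM with Pi16 and 416, 318, 202 and 299 without. Cd248 averaged 177 CPM with Pi16 and 63.7 without, and Ly6c1 306 and 147. Fbln2 averaged 224 and 117 CPM, and the complement regulator gene Cd55 103.5 and 40.1. Cells without Pi16 held more Apoe, a lipid carrier, at a mean of 3746 CPM against 1988, and more Ccl19, a chemokine for dendritic cells and naive T cells, at 337 against 134.5. Gas6 and Cxcl2 were on the same side, at 553 against 324 and 467 against 357 CPM. Dcn averaged 8030 and 8287 CPM, with no common direction in either draw. Ackr3 and Id2 had a common direction in the first draw alone. Sftpc, the surfactant gene of alveolar type 2 cells, stood at 1278 CPM without Pi16 and 43.8 with it in WT replicate 2, and at 219 and 647 in GAL replicate 1, and its part in the split was not tested. These genes were named after their values had been seen, and no test was made.

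**Figure D2:**
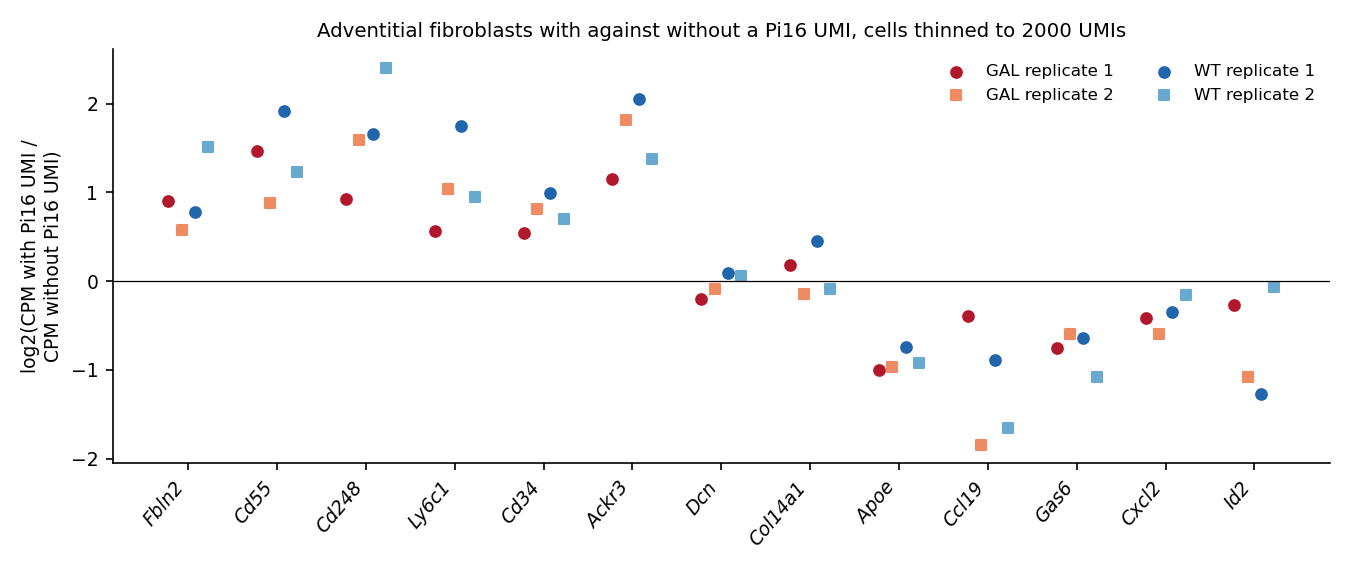
Ratio, on a log2 scale, of the level in members with a Pi16 UMI to the level in members without, for 13 genes and 4 libraries, after 1 draw of thinning each cell to 2000 UMIs. Fbln2, Cd55, Cd248, Ly6c1 and Cd34 lie above 0 and Apoe, Ccl19, Gas6 and Cxcl2 below 0 in every library and in both draws. Dcn and Col14a1, of which Col14a1 is a rule gene, lie on both sides.

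Adventitial fibroblasts made up 2.86% (95% exact binomial interval 2.57 to 3.17) and 1.72% (1.49 to 1.97) of the kept cells of the GAL libraries. In WT they made up 1.35% (1.16 to 1.55) and 1.79% (1.59 to 2.01). The intervals cover counting error only. GAL replicate 2 lay below WT replicate 2, so the groups overlapped, and their means of 2.29% ± 0.806 and 1.57% ± 0.312 (SD, n = 2 each) differed by 0.717 percentage points (two-sided exact permutation test, p = 0.667, where 2 against 2 samples cannot go below 0.333). The difference came to 0.147 percentage points without GAL replicate 1 and 1.29 without GAL replicate 2. With cells thinned to 1000 UMIs the shares were 2.90% and 1.44% in GAL and 1.07% and 1.40% in WT, without overlap (exact permutation p = 0.333). The groups also did not overlap with at least 2 rule genes or among cells with no Ptprc UMI. They overlapped in the remaining settings that kept all 4 libraries. Alveolar fibroblasts took 8.43% of kept cells in GAL replicate 1 and 2.31% to 2.94% in the other libraries. As a share of adventitial plus alveolar fibroblasts, the members were therefore lowest in GAL replicate 1, at 25.3%, against 40.6% in GAL replicate 2 and 31.4% and 43.7% in WT, a difference of -4.63 percentage points between the group means (exact permutation p = 0.667). Digestion frees cell types unequally, so these are shares of recovered cells.

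**Figure D3:**
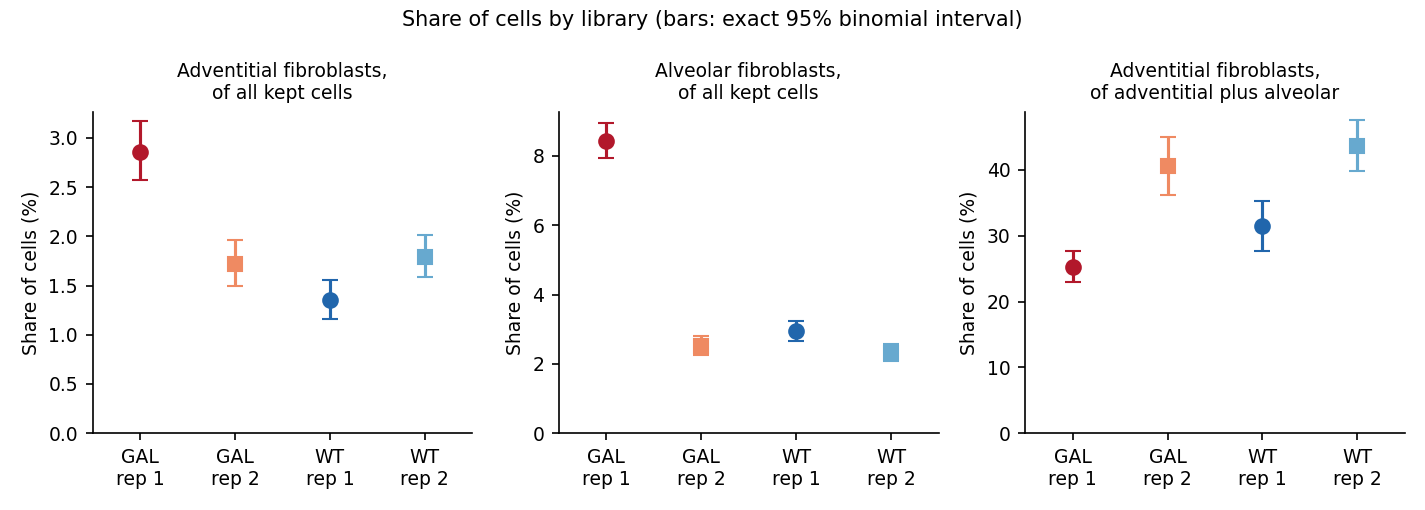
Share of cells by library, in percent, for adventitial and alveolar fibroblasts of all kept cells and for adventitial fibroblasts of both kinds together, with exact 95% binomial intervals. GAL replicate 1 has the highest share in the first panels (2.86% and 8.43%) and the lowest in the last (25.3%).

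Galt itself was scarce in the members. It gave 22, 20, 6 and 18 UMIs, or 10.1 and 17.8 CPM in GAL and 6.35 and 12.6 in WT, so the groups overlapped. Galt (chr4:41755228-41758695) had a log2 fold change, GAL minus WT, of 0.41 ± 0.47 (SE) and an adjusted p of 0.986. The labels do not say how the edit alters the transcript, so this level does not check the labels.

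No gene passed the test between GAL and WT adventitial fibroblasts. Summed counts per library were compared by the edgeR quasi-likelihood test, which called 0 of 8901 genes at an adjusted p under 0.05, the smallest being 0.628. At an unadjusted p under 0.05, 219 genes (2.46%) were higher and 160 (1.80%) lower in GAL, and DESeq2 also called 0, with 73 genes at an unadjusted p under 0.05. The counts moved when a single library was left out, to 104 called genes without GAL replicate 1, 23 without GAL replicate 2, 11 without WT replicate 1 and 6 without WT replicate 2. In those fits the lone library of a group is assumed to vary like the pair of the other. Without the low-count filter 39 genes were called, among them markers of epithelium, neutrophils and plasma cells (Sftpc, Krt8, S100a8, S100a9 and Igkc) beside Hyou1, Creld2, Zbtb16, Nr1d1, Tsc22d3, Mfap4 and mt-Nd3. All values between GAL and WT below are CPM after TMM scaling (a correction for the makeup of each sum), and the genes named are the leading ones, none of them called.

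Among the higher genes, 3 respond to glucocorticoids or the body clock. Tsc22d3, the glucocorticoid-induced leucine zipper GILZ, stood at 147 and 157 CPM in GAL and 68.3 and 70.9 in WT, with a log2 difference of 1.12 ± 0.21 (SE) and an unadjusted p of 0.000152. Zbtb16, a zinc finger gene that glucocorticoids induce, stood at 230 and 114 CPM in GAL and 61.8 and 62.4 in WT (1.48 ± 0.30). Nr1d1, the clock repressor Rev-erb alpha, stood at 125 and 248 CPM in GAL and 75.9 and 70.2 in WT (1.34 ± 0.30). The GAL libraries lay above both WT libraries in each case, but the adjusted p-values were 0.628, 0.650 and 0.981. Of 16 glucocorticoid response genes tested, 6 were higher in GAL without overlap and none lower, beside 17.3% and 17.1% of all genes tested. The list also held 6 genes with negative differences. Lcn2, which encodes the iron-binding protein lipocalin 2, had the largest difference of the list, at -2.22 ± 0.70 (SE) with an unadjusted p of 0.0078, and stood at 65.1 CPM in WT replicate 1 and at 3.81 to 14.1 in the other libraries. The median of that list was 0.12, against -0.01 for all genes, and became 0.18 without GAL replicate 1 and 0.19 without WT replicate 1. Of 17 clock genes tested, 7 were higher without overlap, Nr1d2, Rora and Tef among them, and 1 was lower, beside 17.3% and 17.1%. The clock list had a median of 0.30 that became 0.09 without WT replicate 2 and 0.50 without WT replicate 1.

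With all 4 libraries, the endoplasmic reticulum stress list had the largest median difference of the 21 lists described. These genes encode chaperones, folding enzymes and regulators of the unfolded protein response, which secretory cells such as fibroblasts use for their protein load. Of 18 members tested, 16 were lower in GAL without overlap and none higher, beside 17.1% lower among all genes, and 10 had an unadjusted p under 0.05, beside 1.80%. Hspa5, the chaperone BiP (chr2:34771970-34777547), stood at 2093 and 1329 CPM in GAL and 2853 and 3064 in WT, with a log2 difference of -0.79 ± 0.23. Hyou1, a partner of BiP (chr9:44379490-44392369), stood at 22.9 and 33.6 CPM in GAL and 71.6 and 67.3 in WT (-1.33 ± 0.26). Creld2, a disulphide-handling stress protein, stood at 107 and 71.6 CPM in GAL and 223 and 179 in WT (-1.15 ± 0.24). In all of these genes GAL replicate 1 or 2 was the lowest library and both lay below WT.

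The list had further members on the same side. Manf, a secreted stress protein, stood at 461 and 234 CPM in GAL and 611 and 646 in WT. Sdf2l1 stood at 69.1 and 29.2 against 78.1 and 97.1, and the transcription factor gene Xbp1 at 167 and 175 against 232 and 256. The chaperone genes Hsp90b1 and Dnajc3 differed by -0.52 ± 0.20 and -0.55 ± 0.21, and Ddit3, the stress regulator CHOP, by -0.55 ± 0.21. Calr, Canx and Atf4 had smaller differences (-0.27, -0.32 and -0.24) without overlap, and Dnajb9 and Herpud1 overlapped between the groups. Adjusted p-values in the list lay between 0.628 and 0.995. The median log2 difference of the list was -0.52, from -0.36 without GAL replicate 2 to -0.68 without GAL replicate 1. It was -0.48 after thinning each member to 2000 UMIs, where all 18 genes had negative differences. In alveolar fibroblasts of the same 4 libraries the median was -0.49, again with none called, and no gene of the list had an unadjusted p under 0.05 for a difference between both cell groups. These comparisons share their lungs and are not independent.

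Promoters of these genes are shown because 17 of 18 had negative differences, beside 51.2% of all genes tested, and because many of its genes are known to carry the endoplasmic reticulum stress element, to which Atf6 and Xbp1 bind together with the factor Nf-y. The element was searched as CCAAT and CCACG with 9 bases of any kind between them, on both strands in the RefSeq promoter table (GRCm38.p6), from 250 bases before to 50 after each start. It was found in 7 of the 19 listed genes with an entry (Hspa5, Hsp90b1, Calr, Canx, Pdia6, Dnajc3 and Creld2), which is 36.8%, and in 37 of 27025 genes in all, which is 0.137%. Since many listed genes are known carriers, the higher share of the list is not a result of these data. Hyou1 and Manf had no entry. The 19 include Trib3, Chac1 and Asns, which were not tested between GAL and WT. A match describes letters and not binding, and no match says only that these letters are not in this window. The 250 bases upstream of the RefSeq start are given 5′ to 3′ on the strand of the gene for Hspa5 (chr2:34771840-34772089, plus strand), Hsp90b1 (chr10:86705445-86705694, minus strand) and Creld2 (chr15:88819396-88819645, plus strand). Capitals mark the element, which in Creld2 and at the second place in Hsp90b1 reads on the opposite strand.
Hspa5: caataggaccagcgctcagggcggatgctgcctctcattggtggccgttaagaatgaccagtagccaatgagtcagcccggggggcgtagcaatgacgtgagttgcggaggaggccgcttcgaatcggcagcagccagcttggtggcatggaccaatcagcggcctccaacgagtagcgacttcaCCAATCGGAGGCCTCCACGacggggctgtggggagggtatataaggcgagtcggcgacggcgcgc
Hsp90b1: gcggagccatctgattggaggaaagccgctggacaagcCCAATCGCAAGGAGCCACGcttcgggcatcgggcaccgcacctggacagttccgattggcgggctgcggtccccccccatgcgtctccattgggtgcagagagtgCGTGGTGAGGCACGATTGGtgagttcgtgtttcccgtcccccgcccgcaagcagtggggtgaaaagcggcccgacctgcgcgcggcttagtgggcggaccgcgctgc
Creld2: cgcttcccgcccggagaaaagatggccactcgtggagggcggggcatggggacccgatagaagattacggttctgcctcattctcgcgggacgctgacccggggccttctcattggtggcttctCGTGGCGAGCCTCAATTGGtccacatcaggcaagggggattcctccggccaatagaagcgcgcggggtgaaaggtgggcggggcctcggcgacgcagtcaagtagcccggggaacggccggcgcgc
The element begins 65 bases before the start in Hspa5, 126 bases before it in Creld2 and, at the first of 2 places, 212 bases before it in Hsp90b1.

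Genes of the mitochondrial genome lay on the other side. All 13 had positive differences, beside 48.8% of all genes, and 11 of them were higher without overlap, beside 17.3%. The median was 0.33. mt-Nd3, a subunit gene of complex I, stood at 213 and 165 CPM in GAL and 87.8 and 38.3 in WT (1.63 ± 0.32), and mt-Co3, of complex IV, at 2671 and 2766 against 1926 and 1503 (0.67 ± 0.20). The other 11 had differences of 0.02 to 0.59. The median share of mitochondrial UMIs per member was 2.03% and 1.86% in GAL and 1.67% and 1.38% in WT. That share is a sum over mitochondrial genes, so it rests on the same molecules and is not a separate observation. The median of the list ranged from 0.21 without GAL replicate 1 to 0.45 without GAL replicate 2, and was 0.33 in alveolar fibroblasts.

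**Figure D4:**
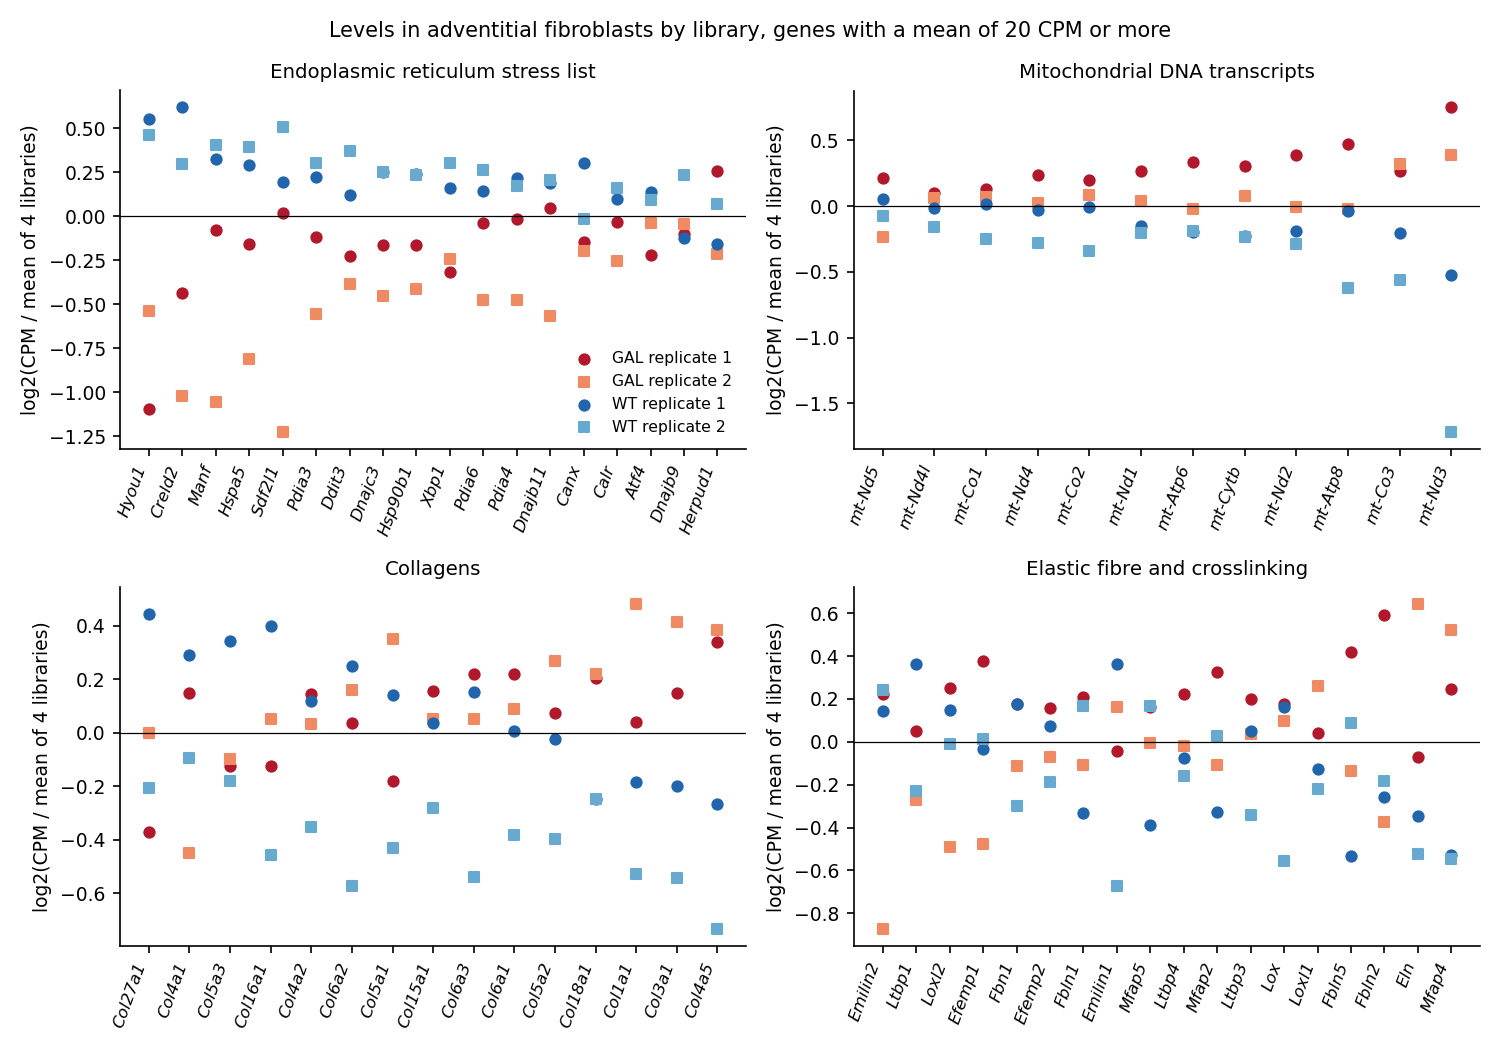
Level in adventitial fibroblasts of each library relative to the mean of the 4 libraries, on a log2 scale after TMM scaling, for genes of 4 lists with a mean of at least 20 CPM, ordered by the difference between GAL (red and orange) and WT (blue). In the endoplasmic reticulum stress panel 16 of 18 genes have both GAL points below both WT points, whereas collagens and elastic fibre genes overlap more.

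Of 17 collagens tested, 8 were higher in GAL without overlap and none lower, beside 17.3% and 17.1% of all genes, with a median of 0.23. Col3a1, of fibrillar collagen III, stood at 1624 and 1951 CPM in GAL and 1276 and 1006 in WT (0.65 ± 0.21), and Col1a1 at 1340 and 1820 against 1147 and 903 (0.62 ± 0.23). Col4a5, of basement membranes, stood at 46.2 and 47.7 against 30.4 and 22.0 (0.87 ± 0.27). WT replicate 2 was the lowest library for these 3 genes, and the median of the list became 0.05 without it and 0.49 without WT replicate 1. For Col3a1 the difference in alveolar fibroblasts was 0.16, and the test of the difference between both cell groups gave an unadjusted p of 0.0039 and an adjusted p of 0.999.

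In the elastic fibre list 5 of 20 genes tested were higher in GAL without overlap and none lower, beside the same 17.3% and 17.1%, so the higher count lies near that of all genes. The list had a median of 0.25 that fell to 0.05 without GAL replicate 1. Mfap4, a microfibril protein, stood at 783 and 946 CPM in GAL and 458 and 452 in WT (0.93 ± 0.21, adjusted p = 0.981), and Eln, elastin, at 669 and 1097 against 552 and 489 (0.76 ± 0.25). Of 31 proteoglycan and matricellular genes, 10 were higher and 1 was lower without overlap, beside 17.3% and 17.1%, and the median of 0.22 became -0.01 without GAL replicate 1. Ccn2, a matricellular target of Tgf-beta and Yap, stood at 237 and 269 CPM in GAL and 110 and 174 in WT (0.83 ± 0.25). The lower gene was Spon2, at 231 and 191 CPM against 326 and 309. Matrix-processing genes had 8 higher and 4 lower of 30, beside 17.3% and 17.1%, and a median of 0.06 (0.00 without GAL replicate 1 and 0.15 without WT replicate 2), with Bmp1, the procollagen C-proteinase, at 70.5 and 82.2 against 48.8 and 53.1 CPM.

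Enzymes of sugar use, the pathway of the edited gene, differed little. Of 15 genes of the Leloir pathway and UDP-sugar supply tested, none was higher and 2, Gfpt1 and Gfpt2, were lower without overlap. Among all genes tested, 17.3% were higher and 17.1% lower in this way. The list had a median of -0.11 (-0.31 without GAL replicate 1 and 0.05 without GAL replicate 2). Gfpt2, of hexosamine synthesis and an adventitial gene at 3.22-fold above alveolar fibroblasts, stood at 459 and 254 CPM in GAL and 489 and 473 in WT. Of 23 genes for proteoglycan linkage and galactosyl transfer, 7 were higher and 1 was lower, beside 17.3% and 17.1%, with a median of 0.14 (0.03 without WT replicate 2 and 0.26 without WT replicate 1). Dse, which makes dermatan sulphate, stood at 76.2 and 62.7 CPM in GAL and 49.9 and 45.4 in WT (0.56 ± 0.23, adjusted p = 0.985).

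Of 24 niche cytokines and chemokines tested, 20 had negative differences, beside 51.2% of all genes, but 2 were lower without overlap, beside 17.1%. The median of -0.20 became 0.11 without WT replicate 1, -0.37 without GAL replicate 1 and -0.49 without WT replicate 2. When cells with any UMI of 5 markers of other cell types were left out, it was 0.07 over 18 genes tested. Il33 was 1 of the genes lower without overlap, at 132 and 125 CPM in GAL and 196 and 159 in WT (-0.46 ± 0.21, edgeR adjusted p = 0.985). Cxcl13, the B cell chemoattractant, stood at 110 CPM in WT replicate 1 and at 3.53 to 12.9 in the other libraries, Cxcl14 at 282 against 61.4 to 96.3, and Il11 at 49.9 against 10.6 to 13.8. Interferon-response genes had a median of -0.42, with 4 of 22 lower and 1 higher without overlap, beside 17.1% and 17.3%, which became 0.10 without WT replicate 1 and -0.86 without WT replicate 2. Complement genes had a median of -0.02 (0.29 without WT replicate 1 and -0.17 without WT replicate 2) and split the libraries within each group: C3 stood at 1929 and 4636 CPM in GAL and 4669 and 1756 in WT, and Cfb at 189 and 244 against 338 and 153. Immediate early genes, which tissue digestion is known to induce, had 8 of 28 lower and 2 higher without overlap, beside 17.1% and 17.3%. Their median of -0.20 became 0.02 without GAL replicate 2 and -0.36 without GAL replicate 1.

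The remaining lists had medians between -0.10 and 0.32. Adventitial identity had a median of 0.05 (-0.24 without GAL replicate 1 and 0.25 without GAL replicate 2). In this list 2 of 28 were higher and 4 lower without overlap, beside 17.3% and 17.1% of all genes. Il33 and Ly6a were among the lower. Growth factors and their binding proteins had a median of -0.01 (-0.11 without GAL replicate 1 and 0.05 without WT replicate 2), and in this list Gas1, a hedgehog co-receptor, stood at 263 and 217 CPM in GAL and 117 and 164 in WT (0.77 ± 0.23). For Tgf-beta response and contractile genes the median was 0.01, and -0.17 without GAL replicate 1 and 0.13 without WT replicate 2. Acta2, smooth muscle actin, stood at 145 and 49.5 CPM in GAL and 177 and 352 in WT (-1.41 ± 0.42) and is itself 1 of the 8 smooth muscle markers, which summed to 338 and 126 CPM in GAL and 267 and 756 in WT. The part of smooth muscle RNA in this difference was not tested. When cells with any UMI of Msln, Upk3b, Sftpc, Pecam1 or Lyz2 were also left out, the Acta2 difference was 0.02. That fit tested 3869 genes, against 8901 with all members. Heat shock genes had a median of 0.02 (-0.13 without WT replicate 1 and 0.17 without WT replicate 2), with Hspa1a at 616 and 1279 CPM against 570 and 600. Oxidative stress genes had a median of -0.10, and of -0.02 without GAL replicate 1 or without WT replicate 2. Lipid and sterol genes had a median of -0.07, which became -0.34 without GAL replicate 1 and -0.20 without WT replicate 2. It was 0.44 when cells bearing the 5 other markers were left out, over 8 genes tested against 18 with all members. The 9 genes tested for peribronchial and Col15a1-bearing states had a median of 0.32, and of 0.17 without GAL replicate 1 and 0.15 without WT replicate 2.

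**Figure D5:**
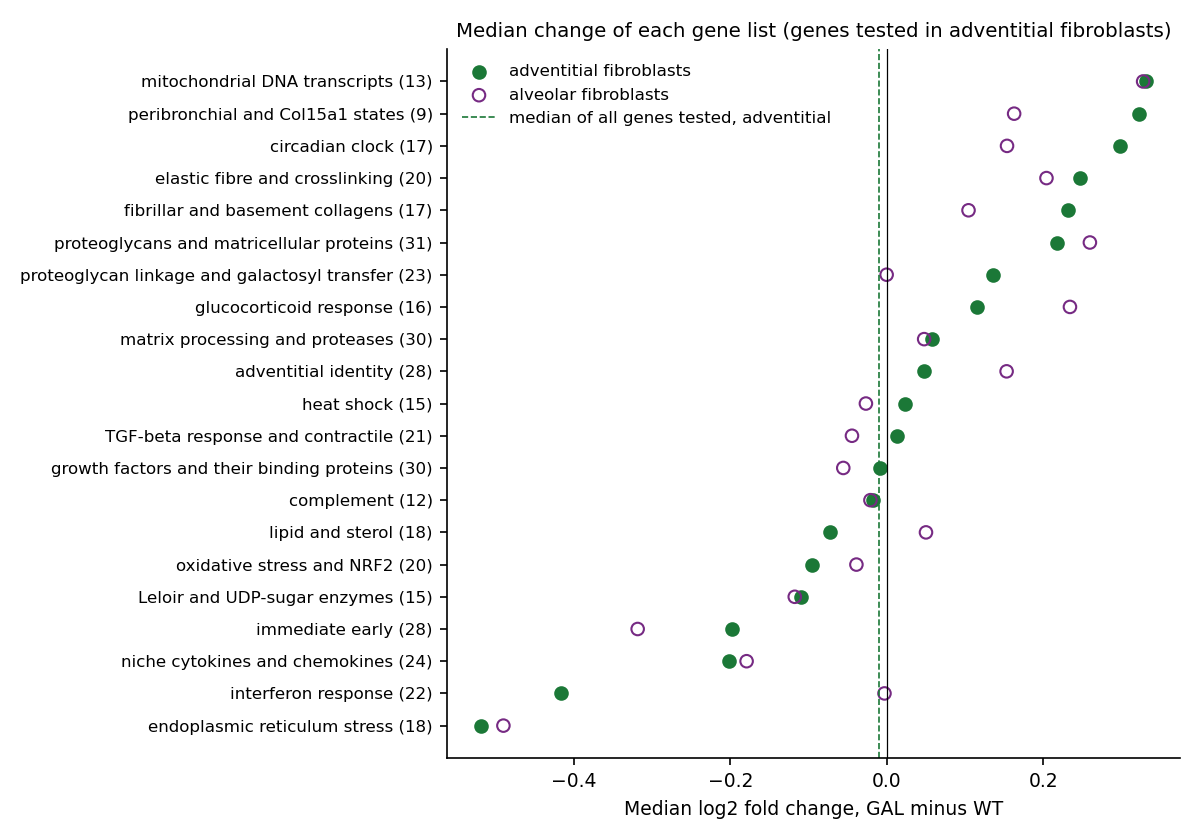
Median log2 fold change between GAL and WT of the genes tested in each of 21 lists, in adventitial fibroblasts (filled) and alveolar fibroblasts (open), with the number of genes tested in adventitial fibroblasts in brackets. Endoplasmic reticulum stress lies lowest in both (-0.52 and -0.49), mitochondrial DNA transcripts highest (0.33 and 0.33), and interferon response is apart between them (-0.42 and 0.00).

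Whether the GAL effect differed between adventitial and alveolar fibroblasts was tested with library as a block. None of 10695 genes was called, the smallest adjusted p being 0.118, while 226 genes (2.11%) had an unadjusted p under 0.05 with the larger value in adventitial cells and 222 (2.08%) with the larger value in alveolar cells. The genes with the smallest p were Cldn18, Lyz1, Acta2 and Krt18, of which Cldn18, Lyz1 and Krt18 are epithelial genes. In alveolar fibroblasts Cldn18 stood at 101 CPM in GAL replicate 1 and at 1.03 to 7.63 in the other libraries. Leaving out a library gave 12 called genes without GAL replicate 1, 42 without GAL replicate 2, 13 without WT replicate 1 and 0 without WT replicate 2. Gas1 and Spon2, which are stromal genes, had differences of 0.85 ± 0.21 and 0.97 ± 0.23 (SE) between the cell groups, with adjusted p-values of 0.999 each. In the alveolar fibroblasts alone, 0 of 10268 genes were called between GAL and WT, with 314 (3.06%) higher and 185 (1.80%) lower at an unadjusted p under 0.05.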

How the data were processed

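Raw UMI counts per gene and barcode, deposited by the authors as 1 matrix of whole numbers per library with 32285 genes, were used as they stand. Per the submitters' processing notes the tools were STAR, fastp and Seurat, with the builds GRCm38 and mm10. Versions and the counting annotation are not given in the sources used here. In each library the lowest barcode held 500 UMIs. Cells with at least 300 genes and at most 20% mitochondrial UMIs were kept, 12148 and 11887 in GAL and 14012 and 15416 in WT. Doublets were scored with Scrublet (scanpy 1.11.5) but removed only as an alternative. Counts of the members were summed per library and tested with edgeR 4.0.16 (glmQLFit, filterByExpr, TMM, Benjamini-Hochberg over all genes tested), with DESeq2 1.42.0 as an alternative, on R 4.3.3; the pipeline was tested on simulated data. CPM in descriptions of the cells are of all UMIs of a sum, and CPM between GAL and WT are after TMM scaling. Replicate numbers follow accession order and pair nothing. Exact binomial intervals and permutation tests used scipy 1.17.1. Gene positions are from GENCODE M21 (GRCm38).

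The members and the gene lists were chosen with earlier results of these data known. Named are Galt, the rule genes, the 15 leading genes against other cells and against alveolar fibroblasts, 8 genes each way with the smallest p, no overlap and at least 50 CPM, and up to 4 per list with the smallest p and at least 20 CPM. Genes beyond this rule were chosen after their values were seen, as were the thinning of members to 2000 UMIs, the split by Pi16 and its second draw. Some items are not reported here.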

Additional observations from a re-analysis of the deposited data

How the results depend on the processing

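No paired analysis was possible because the labels give no replicate numbers that link a GAL to a WT library. The count of 0 called genes between GAL and WT was also 0 with DESeq2, RLE or upper quartile scaling, a filter of 10 UMIs in 2 libraries, at least 500 genes and 1000 UMIs per cell, at most 10% mitochondrial UMIs, at least 4 rule genes, doublets or shared barcodes removed, cells with other markers removed, and members thinned to 2000 UMIs (the last added after seeing the data). It was 39 without a low-count filter (21 higher and 18 lower in GAL) and 6 to 104 with 1 library left out. The cause of these shifts was not tested. The fit with cells bearing other markers removed tested 3869 genes and that with thinned members 5507, against 8901 with all members at full depth. The count of genes whose GAL effect differs between adventitial and alveolar fibroblasts was 50 without the filter and 0 to 42 with 1 library left out, and 0 with RLE scaling or at least 4 rule genes. The difference in the share of adventitial fibroblasts reversed to -4.63 percentage points when taken of adventitial plus alveolar fibroblasts. It ranged from 0.147 to 1.29 with 1 library left out, and was 0.935 when cells were thinned to 1000 UMIs. Of the list medians, those of endoplasmic reticulum stress (-0.681 to -0.358 with 1 library left out), mitochondrial DNA transcripts (0.21 to 0.45) and collagens (0.046 to 0.488) kept their direction in all settings run. So did those of the elastic fibre, circadian clock, peribronchial and Col15a1, glucocorticoid response and proteoglycan linkage lists. The Acta2 difference, -1.41 with all cells, became 0.024 with cells bearing other markers removed. Over all lists and settings, 26 medians moved by more than 1 SD between replicates and 310 did not. Among genes named by p, 20 values passed the threshold in another setting. Few member cells, 189 to 347 per library, limit what low genes can show.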

Other observations

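Beyond the comparisons above, a few genes outside the lists had both GAL libraries apart from both WT libraries in the adventitial fibroblasts, none of them called by edgeR (values in CPM after TMM scaling, genes chosen by the rule of smallest p). Nox4, an NADPH oxidase, stood at 72.4 and 83.9 in GAL and 41.2 and 44.6 in WT. Pdgfrl, a receptor-like gene, stood at 76.2 and 92.8 in GAL and 36.9 and 50.3 in WT. Tmem88, a Wnt pathway inhibitor, stood at 126 and 135 in GAL and 84.6 and 64.5 in WT. On the lower side, Snrpd3 and Luc7l, genes of RNA splicing, stood at 64.3 and 63.6 against 119 and 98.5 and at 33.8 and 39.8 against 68.3 and 60.2. Cacybp stood at 65.3 and 50.4 against 99.8 and 88.6, Snx3 at 51.4 and 45.1 against 79.2 and 75.1, and Gm26532 at 73.8 and 68.9 against 111 and 125.

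Adamtsl2, a regulator of microfibrils that is named after its value was seen, had the smallest unadjusted p of all genes tested (0.000125, adjusted p = 0.628, edgeR). It stood at 63.8 and 52.1 CPM in GAL and 21.7 and 21.3 in WT, a log2 difference of 1.44 ± 0.26 (SE).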
